A study of Mus musculus with 5 samples.

Results

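The Schlafen family genes Slfn1, Slfn2, Slfn4 and Slfn5 were followed across the stages of mouse neutrophils and the other cell types caught in the same sort. These 4 members were chosen by name, out of 21995 genes in the count matrix, of which 10 carry a Schlafen symbol. The choice was made with earlier results of these data known. The cells were sorted as DAPI-negative, CD11b-positive and Ly6G-positive from lung, liver, spleen, intestine, blood and bone marrow of C57BL/6 mice, a common inbred laboratory strain, held at steady state without infection or treatment. The age of the young mice is given as 10 weeks with the samples but as 8 weeks in the description of the design, and that of the old mice as 20 months. The experiment was performed on separate occasions, and each time all tissues and both ages were multiplexed into one BD Rhapsody cartridge, which captures single cells in microwells and gives each mRNA molecule a unique molecular identifier (UMI). This gave 2 pools, YO1 and YO2. Tissue and age of single cells were not analysed here, and all comparisons are between classes of cells within the pools.

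A cell was kept from 200 UMIs and 100 genes on if mitochondrial genes took less than 20% of its UMIs, which left 19505 cells in YO1 and 17215 in YO2, with medians of 1231 and 1454 UMIs. Stages were set by UMIs of neutrophil stage genes. Cycling cells had at least 2 UMIs of Mki67 and Top2a together (828 cells in YO1 and 182 in YO2). Ltf-high cells had at least 5 UMIs of Ltf, which encodes the secondary-granule protein lactoferrin (2234 and 451). Late immature cells had at least 10 UMIs of Ngp, another secondary-granule gene, with Ltf under 5 (444 and 33). Mature cells had at least 2% of their UMIs from S100a8 and S100a9 with Ngp under 3 (10325 and 10045). Levels are given as CPM, the UMIs of the gene scaled to the same total of UMIs in every class, first in YO1 and then in YO2. A difference was called at an adjusted p under 0.05 by edgeR's quasi-likelihood test on the UMI sums, with the pool as a block. Every class of a pool comes from the same library, and the block takes out the difference in level between the 2 libraries. The p-values thus measure only how far differences between classes varied between 2 libraries.

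Marker lists were set beside the gated classes, and YO2 held exceptions. The neutrophil list includes S100a8, S100a9, Ltf and Ngp, which set the gates, so a high sum does not bear out the labels. S100a8 and S100a9 alone took 14.2% and 13.8% of the UMIs of Ltf-high cells and 6.38% and 5.16% of those of mature cells. The neutrophil marker list held 235934 and 231531 CPM in Ltf-high cells and 85323 and 68597 CPM in mature cells. In cycling cells it held 154172 and 76671 CPM, and the plasma cell list of 6 markers held 594 CPM in YO1 and 24634 CPM in YO2. The neutrophil progenitor list of the same cells stood at 4300.5 CPM in YO1 and 22.8 CPM in YO2. The 33 late immature cells of YO2 held 32973 CPM of the plasma cell list, against 10.6 CPM in YO1. The part of these other cells in the results below was not tested unless a value is given. In the 2 pools 406 cell labels were the same.

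Schlafen proteins are a family found in mammals whose genes lie side by side on mouse chromosome 11, and many of them are switched on by interferon. Type I interferon binds the receptor made of Ifnar1 and Ifnar2, the kinases Jak1 and Tyk2 then pass the signal on, and a transcription factor complex that holds Stat2 and Irf9 binds the interferon-stimulated response element in target promoters. Slfn1 and Slfn2 are short members, known in mice for slowing the growth of thymocytes and for keeping T cells and monocytes quiescent. Slfn4 is a member of middle length known from mouse myeloid cells, and Slfn5 is a long member with a helicase-like C-terminal region.

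In GRCm38 the 10 annotated Schlafen genes of the cluster span 344 kb, chr11:82942341-83286726. Slfn5 lies at chr11:82951349-82964840, Slfn2 at chr11:83065112-83070678, Slfn1 at chr11:83116849-83122670 and Slfn4 at chr11:83175186-83190216, all on the plus strand and all protein coding. Slfn9 and Slfn8 lie between Slfn5 and Slfn2 on the minus strand, and Slfn3 begins 1114 bases after the end of Slfn4. Slfn5 overlaps Slfn5os on the other strand, which had 0 UMIs in YO1 and 1 in YO2. Of the 42-base words of each gene's annotated transcripts, 14.5% were shared with another gene for Slfn4 (8.77% with Slfn3). The share was 6.04% for Slfn2, 3.91% for Slfn5 and 1.04% for Slfn1. Among the 4 members the Slfn4 counts are thus the ones most open to shared reads. Slfn3 itself had 80 and 81 UMIs in all kept cells. For Slfn8 and Slfn9, set beside the members below, the shares were higher, at 18.5% and 15.0%. Most of this was shared with the pseudogene Slfn10-ps (13.08% and 10.25%), which is not in the count matrix.

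The 250 bases before the start of each member, from RefSeq on GRCm38.p6 and written on the plus strand, are shown because the members differed in their response to the interferon programme described below. Capitals mark each match, on either strand, to the interferon-stimulated response element core, GAAANN directly followed by GAAA, or to the shorter interferon regulatory factor element AANNGAAA, which overlaps it. The windows are chr11:83116570-83116819 for Slfn1, chr11:83064862-83065111 for Slfn2, chr11:83174936-83175185 for Slfn4 and chr11:82951852-82952101 for Slfn5. The RefSeq start of Slfn5 used here lies inside the span of the gene given above.
Slfn1: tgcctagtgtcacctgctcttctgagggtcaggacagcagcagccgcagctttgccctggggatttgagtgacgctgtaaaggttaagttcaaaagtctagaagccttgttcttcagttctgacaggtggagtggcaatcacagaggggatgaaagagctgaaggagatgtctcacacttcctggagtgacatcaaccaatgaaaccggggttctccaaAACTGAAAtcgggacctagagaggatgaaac
Slfn2: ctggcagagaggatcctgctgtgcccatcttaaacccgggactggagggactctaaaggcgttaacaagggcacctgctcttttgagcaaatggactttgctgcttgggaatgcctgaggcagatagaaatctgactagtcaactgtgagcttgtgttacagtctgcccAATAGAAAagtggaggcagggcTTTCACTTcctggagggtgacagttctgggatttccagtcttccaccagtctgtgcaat
Slfn4: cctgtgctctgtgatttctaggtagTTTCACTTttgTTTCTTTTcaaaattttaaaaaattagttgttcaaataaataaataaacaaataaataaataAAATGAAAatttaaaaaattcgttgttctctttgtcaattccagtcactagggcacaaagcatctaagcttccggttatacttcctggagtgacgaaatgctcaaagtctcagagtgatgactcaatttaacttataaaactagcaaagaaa
Slfn5: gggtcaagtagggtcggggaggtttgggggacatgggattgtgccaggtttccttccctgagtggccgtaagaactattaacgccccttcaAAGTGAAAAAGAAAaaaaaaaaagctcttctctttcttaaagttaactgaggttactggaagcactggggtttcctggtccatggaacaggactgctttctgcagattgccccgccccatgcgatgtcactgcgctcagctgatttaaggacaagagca
The core stood in Slfn5, with its first base 155 bases before the start, and in none of the other 3 members. The shorter element stood once in Slfn1, 2 times in Slfn2, 3 times in Slfn4 and 2 times in Slfn5. Among 32851 promoter windows of RefSeq, 3.443% held the core and 23.92% held the shorter element. These windows are 300 bases long and also take in bases from the start on. In their own windows of that length the 4 members had the same counts. The gamma-activated sequence TTCNNNGAA was in none of the 4 members and in 8.298% of all windows. A match is a description of letters and says nothing of binding.

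The core was also present in 2 other members of the cluster, Slfn8 and Slfn9, which are set beside the 4 below. Stretches of 60 bases around it, on the minus strand, are chr11:83020824-83020883 for Slfn8 and chr11:82991841-82991900 for Slfn9, with the core in capitals, 48 and 45 bases before the start.
Slfn8: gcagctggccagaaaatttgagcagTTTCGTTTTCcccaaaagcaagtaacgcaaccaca
Slfn9: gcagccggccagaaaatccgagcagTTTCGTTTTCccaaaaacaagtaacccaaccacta

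Slfn1, Slfn2 and Slfn4 were already higher in Ltf-high cells than in cycling cells, and Slfn5 was not. Slfn1 stood at 501 and 737 CPM in Ltf-high cells, against 75.8 and 145 CPM in cycling cells. Slfn4 stood at 892 and 1131 CPM in Ltf-high cells, against 175 and 270 CPM in cycling cells. Slfn2 stood at 507 and 494 CPM in Ltf-high cells, against 248 and 291 CPM in cycling cells. For all 3 genes the lower Ltf-high pool lay above the higher cycling pool. Slfn5 stood at 23.1 and 21.6 CPM in Ltf-high cells, against 16.2 and 49.1 CPM in cycling cells, and the ranges overlapped.

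The differences of Ltf-high from cycling cells were 3.34 ± 0.23 (log2, SE) for Slfn1, with an edgeR adjusted p of 2.34e-06. They were 3.02 ± 0.23 for Slfn4 (adjusted p = 3.95e-06) and 1.70 ± 0.24 for Slfn2 (adjusted p = 0.000223). Slfn5 differed by 0.51 ± 0.33 (adjusted p = 0.225). In this comparison 26.7% of 10397 genes were called higher and 19.5% lower, so a call of 3 of 4 members stands against a high background. The size of these differences depended on scaling. With total UMIs in place of TMM factors the median of all genes moved by -0.79, and the differences were 2.53, 0.89 and 2.21 for Slfn1, Slfn2 and Slfn4, all still called. Slfn5 was called higher, by 1.27 (adjusted p = 0.000804), when cycling cells were limited to those with at least 2% S100a8 and S100a9 UMIs, and by 1.17 (adjusted p = 1.77e-05) without the whole YO2 sum of cycling cells.

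Between Ltf-high and late immature cells no member passed the test. Slfn1 stood at 809 and 1163 CPM in late immature cells, 0.71 ± 0.22 higher on the log2 scale than in Ltf-high cells (adjusted p = 0.128). Slfn2 stood at 686 and 480.2 CPM and Slfn4 at 961 and 1468 CPM, with differences of 0.29 (adjusted p = 0.601) and 0.27 (adjusted p = 0.579). Slfn5 stood at 44.4 and 36.9 CPM, from 42 and 4 UMIs, with a difference of 1.10 ± 0.40 (adjusted p = 0.210). In this comparison 0.789% of genes were called higher and 0.596% lower, and the YO2 sum held 33 cells. Slfn1 was called by DESeq2 at the same size (0.69, adjusted p = 0.00347).

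Slfn5 was called higher at the last step, and the other 3 members were called there only in thinned cells. Mature cells held 150.1 and 200.4 CPM of Slfn5, against 44.4 and 36.9 CPM in late immature cells, with no overlap. The difference was 1.70 ± 0.38 (log2, adjusted p = 0.0206), in a comparison where 2.52% of genes were called higher and 3.39% lower. The call was lost when the late immature cells of YO1 (2.44, adjusted p = 0.308) or of YO2 (1.53, adjusted p = 0.161) were left out, and in the fit without the pool block (1.90, adjusted p = 0.0773). Mature cells with 0 UMIs of the interferon-stimulated genes Ifit1, Ifit3 and Rsad2, split off below, held 64.7 and 85.3 CPM of Slfn5. The part of the other mature cells in this step was not tested. Slfn1 was at 926 and 1385 CPM in mature cells, Slfn2 at 809 and 928 CPM and Slfn4 at 1241 and 1587 CPM. Their differences from late immature cells, 0.09, 0.40 and 0.11, did not pass (adjusted p = 0.890, 0.425 and 0.840). Cells thinned to 500 UMIs were gated anew on the thinned counts, so those classes did not hold the same cells. There the 3 differences were 1.05, 0.83 and 0.72, all called (adjusted p = 0.000164, 0.00252 and 0.00884).

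**Figure D1:**
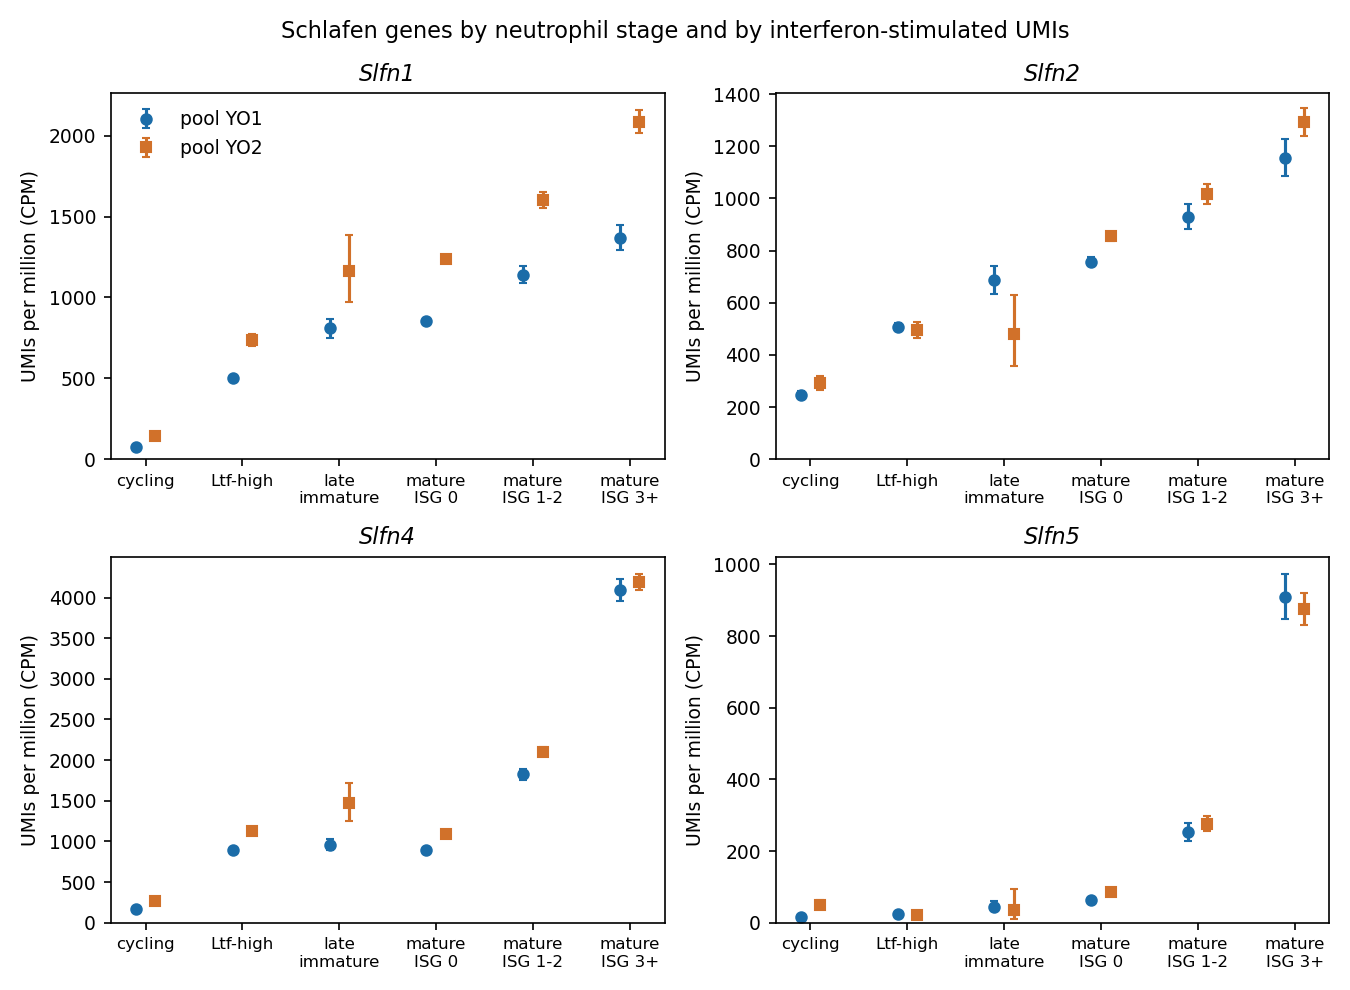
CPM of Slfn1, Slfn2, Slfn4 and Slfn5 by neutrophil stage, with mature cells split by their UMIs of Ifit1, Ifit3 and Rsad2 together (ISG 0, 1-2 and 3+). Circles are pool YO1, squares pool YO2, and bars are 95% exact Poisson intervals, which cover counting error only. Slfn1, Slfn2 and Slfn4 were already above cycling cells in Ltf-high cells, whereas Slfn5 stayed under 50 CPM until the mature stage and reached 909 and 875 CPM in cells with 3 or more UMIs.

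Set directly against Ltf-high cells, which avoids the thin late immature sums, mature cells held more Slfn5 in both pools, 150.1 and 200.4 CPM against 23.1 and 21.6 CPM. The difference was 2.80 ± 0.32 (log2, adjusted p = 6.35e-05), and it was called in every fit that left out one of the 4 sums, with values of 2.49 to 3.21. Of 10397 genes 14.9% were called higher and 14.7% lower. Slfn1 (0.80 ± 0.21, adjusted p = 0.0136) and Slfn2 (0.70 ± 0.24, adjusted p = 0.0422) were called too. Both calls were lost without the block (adjusted p = 0.161 for Slfn1 and 0.0829 for Slfn2) and without any single one of the 4 sums. Slfn4 differed by 0.38 ± 0.21 (adjusted p = 0.194). Against cycling cells, mature cells held more of all 4 members, by 4.14 for Slfn1, 2.40 for Slfn2, 3.40 for Slfn4 and 3.31 for Slfn5, where 30.3% of genes were called higher and 30.3% lower. The share of higher calls in that comparison was 49.9% of all calls, against 32.5% with RLE factors and 27.5% with total UMIs, which moved the median of all genes by -0.70. In ratios of CPM, which rest on total UMIs, mature over cycling cells gave 12.2 and 9.58 for Slfn1, 3.27 and 3.19 for Slfn2, 7.10 and 5.88 for Slfn4 and 9.28 and 4.08 for Slfn5. These comparisons share the mature or the Ltf-high sums with those above.

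The other genes of the interferon pathway were followed by lists. Of 37 interferon-stimulated genes tested, 19 were higher and 2 lower in mature than in Ltf-high cells, with a median difference of 0.88 (log2) beside 0.01 over all genes. Isg15, a ubiquitin-like modifier, differed by 2.37 ± 0.33 (adjusted p = 0.000277) and Irf7, a transcription factor of the interferon response, by 1.53 ± 0.23 (adjusted p = 0.00041). Of 14 receptor and signalling genes, 9 were higher and 0 lower (median 0.93). They included Ifnar1 (1.06 ± 0.24, adjusted p = 0.006) and Ifngr1 of the interferon gamma receptor (1.27 ± 0.23, adjusted p = 0.00147). All 9 guanylate-binding and immunity-related GTPases tested were higher (median 2.28), and so were all 10 immediate early and stress genes (median 2.91). At the earlier step, Ltf-high against cycling, 26 of 37 interferon-stimulated genes were higher and 0 lower (median 1.31 beside 0.12 over all genes), where 26.7% of all genes were called higher and 19.5% lower. DESeq2 called 19 of the 37, and the scaling given above moves this comparison as a whole.

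Within the mature cells all 4 members were higher in cells with an interferon-stimulated transcript signature. The split used the UMIs of Ifit1, Ifit3 and Rsad2 together, which are antiviral genes induced by type I interferon. Cells with at least 3 such UMIs (ISG-high, 599 and 925 cells) were set against cells with 0 (ISG-zero, 8578 and 7683 cells). Slfn5 stood at 909 and 875 CPM in ISG-high cells, against 64.7 and 85.3 CPM in ISG-zero cells. Slfn4 stood at 4092 and 4194 CPM in ISG-high cells, against 889 and 1093 CPM in ISG-zero cells. Slfn1 stood at 1368 and 2087 CPM in ISG-high cells, against 852 and 1235 CPM in ISG-zero cells. Slfn2 stood at 1156 and 1292 CPM in ISG-high cells, against 758 and 855 CPM in ISG-zero cells. For each of the 4 genes both ISG-high pools lay above both ISG-zero pools.

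The difference was 3.58 ± 0.08 (log2, SE) for Slfn5 (adjusted p = 2.46e-20), which in ratios of CPM was 14.0 in YO1 (95% counting interval 12.7 to 15.6) and 10.3 in YO2 (9.47 to 11.1). For Slfn4 it was 2.08 ± 0.06 (adjusted p = 4.06e-19), with ratios of 4.604 (4.43 to 4.78) and 3.84 (3.73 to 3.95). For Slfn1 it was 0.74 ± 0.05 (adjusted p = 2.64e-10), with ratios of 1.61 (1.51 to 1.70) and 1.69 (1.63 to 1.75). For Slfn2 it was 0.62 ± 0.06 (adjusted p = 1.35e-08), with ratios of 1.53 (1.43 to 1.63) and 1.51 (1.44 to 1.58). All 4 members were called higher, in a comparison where 4.11% of 7957 genes were called higher and 0.314% lower. In the fit without the pool block Slfn5 (adjusted p = 0.000700) and Slfn4 (adjusted p = 0.00267) stayed called, while Slfn1 (adjusted p = 0.9998) and Slfn2 (adjusted p = 0.258) were not.

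The share of cells with a Slfn5 UMI showed the same contrast at equal depth. After each cell was thinned to 500 UMIs, 29.6% of ISG-high cells in YO1 (95% exact interval 26.0 to 33.5) and 29.3% in YO2 (26.4 to 32.3) had a Slfn5 UMI, against 2.64% (2.31 to 3.01) and 3.44% (3.04 to 3.87) of ISG-zero cells. Without thinning the shares were 50.1% and 50.8%, against 5.18% and 8.03%. Median depth was 1152 and 1494 UMIs in ISG-high cells, against 1016 and 1326 UMIs in ISG-zero cells. Alveolar macrophages, at 10.7 and 9.09 CPM of Slfn5, had a thinned share of 0.529% and 0.390%. For the fit in thinned counts the classes were gated anew, so ISG-high meant at least 3 of 500 UMIs. Its classes therefore did not hold the same cells as those above. The log2 differences there were 4.15 for Slfn5, 2.71 for Slfn4, 0.91 for Slfn1 and 0.98 for Slfn2, all called.

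Markers of some other cell types moved with the split. Of the nonclassical monocyte list 3 of 5 were higher in ISG-high cells in both pools and 1 was lower. Of the C1q macrophage list 3 of 5 were higher, of the endothelial list 3 of 7, and 0 of either were lower. Of 6 dendritic cell markers 2 were higher and 1 lower, of 6 eosinophil markers 1 and 3, and of 10 T and NK markers 1 and 2. No B cell, plasma cell, basophil and mast cell or alveolar macrophage marker was higher in both pools. Of these lists 1 of 8, 4 of 6, 1 of 8 and 2 of 7 were lower in both. The endothelial list summed to 1154 and 2.9 CPM in ISG-high cells, against 356 and 4.7 CPM in ISG-zero cells, so its difference was in YO1. The classical monocyte list summed to 414 and 254 CPM in ISG-high cells, against 206 and 138 CPM in ISG-zero cells, with 2 of its 4 markers higher in both pools and 0 lower. With all stage cells that held 2 or more UMIs of another lineage list left out, the differences were as large, 3.83 for Slfn5, 2.21 for Slfn4, 0.83 for Slfn1 and 0.71 for Slfn2. The neutrophil list itself stood at 73568 and 64076 CPM in ISG-high cells and 87759 and 69710 CPM in ISG-zero cells.

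Splitting mature cells by other genes of the programme gave the same order of sizes. With at least 3 against 0 UMIs of Isg15, Ifit2 and Oasl2, the differences were 3.23 for Slfn5, 1.74 for Slfn4, 0.48 for Slfn1 and 0.32 for Slfn2, and all 4 were called. Mature cells with 1 or 2 UMIs of Ifit1, Ifit3 and Rsad2 (1148 and 1437 cells) lay between the other classes for every member in each pool. Slfn5 stood there at 253 and 276 CPM, Slfn4 at 1826 and 2106 CPM, Slfn1 at 1141 and 1603 CPM and Slfn2 at 929 and 1017 CPM. Their differences from ISG-zero cells were 1.79, 0.97, 0.37 and 0.25 (log2), all called, where 3.32% of genes were called higher and 0.126% lower.

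Finer steps of the same UMI sum separated the members by the shape of their course. Slfn5 stood at 64.7, 232, 297, 564, 921 and 1787 CPM in YO1 at 0, 1, 2, 3 to 4, 5 to 9 and at least 10 UMIs, and at 85.3, 243, 358, 501, 742 and 1779 CPM in YO2. Slfn4 stood at 889, 1556, 2410, 3335, 3710 and 6746 CPM in YO1 and at 1093, 1949, 2487, 2866, 4212 and 6649 CPM in YO2. Both genes were higher at every next step in both pools. Slfn1 levelled off, at 852, 1069, 1298, 1429, 1314 and 1303 CPM in YO1 and at 1235, 1533, 1774, 2022, 2176 and 2070 CPM in YO2. Slfn2 moved between 758 and 1232 CPM in YO1 and between 855 and 1352 CPM in YO2. The highest step held 102 cells in YO1 and 202 in YO2, of which 80.4% and 78.2% had a Slfn5 UMI.

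**Figure D2:**
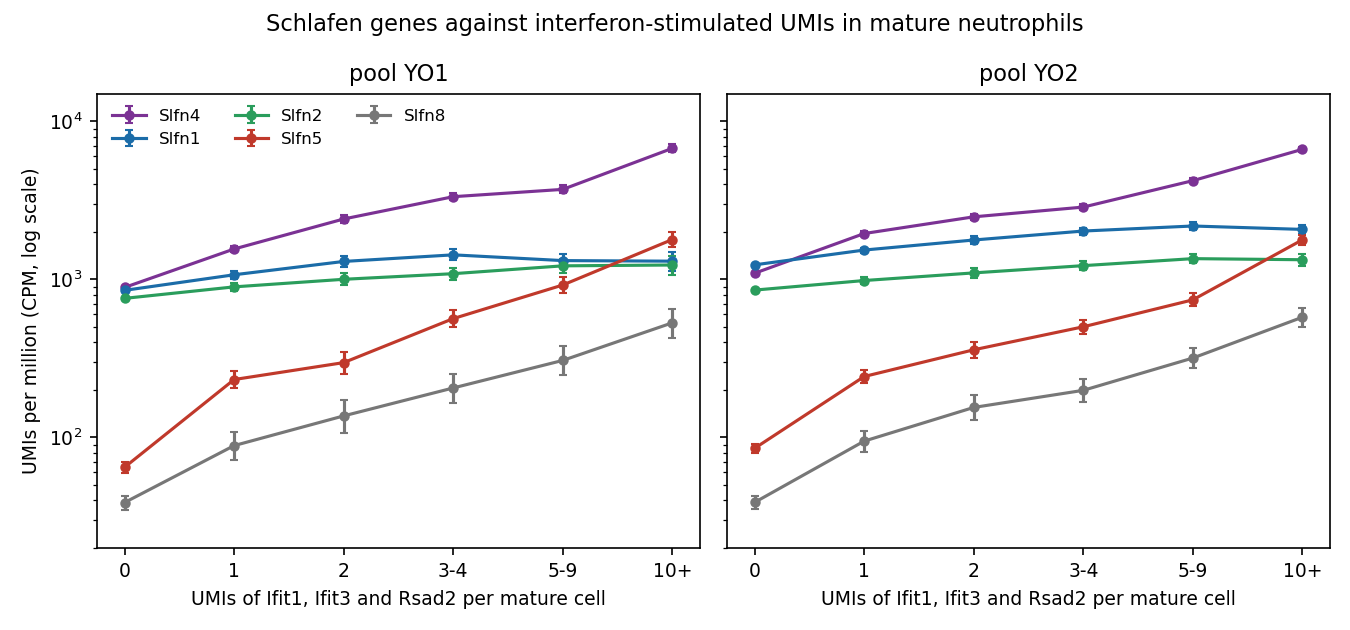
CPM (log scale) of 5 Schlafen genes in mature neutrophils against the UMIs of Ifit1, Ifit3 and Rsad2 per cell, in pool YO1 (left) and YO2 (right), with 95% exact Poisson intervals. The lines of Slfn4, Slfn5 and Slfn8 climb to the last step, where Slfn5 reached 1787 and 1779 CPM, while those of Slfn1 and Slfn2 flatten from 5 to 9 UMIs on.

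The rest of the interferon programme divided along the lists. Of 37 interferon-stimulated genes tested, other than the genes of the split, 36 were higher in ISG-high than in ISG-zero mature cells and 0 lower, with a median of 2.26 (log2) beside 0.00 over all genes. Ifi44 did not pass. Among the first genes of the list, Usp18, which removes Isg15 from proteins, differed by 4.03 ± 0.18, Oasl1 by 3.31 ± 0.12, Isg15 by 2.98 ± 0.08, Irf7 by 2.48 ± 0.08 and the nucleic acid sensor Zbp1 by 2.46 ± 0.14. Of 9 interferon-linked GTPases 8 were higher (median 2.16), with Gbp5 at 2.94 ± 0.31 and Irgm1 at 2.45 ± 0.13, and Iigp1 at 2.05 ± 0.76 did not pass (adjusted p = 0.181). Of 14 receptor and signalling genes 2 were higher, Irf2 and the feedback inhibitor Socs1, and the median was 0.08. Ifnar1 differed by 0.01 ± 0.16 and Jak1 by 0.01 ± 0.06. None of 10 immediate early and stress genes was called by edgeR, and 0 by DESeq2, with 4 at an unadjusted p under 0.05 and a median of -0.10. The Slfn5 difference was thus above the median of the interferon-stimulated list, Slfn4 just below it, and Slfn1 and Slfn2 well below it.

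Slfn8 and Slfn9, the other long members with the response element core, also differed in this split. Slfn8 stood at 299 and 326 CPM in ISG-high cells, against 38.7 and 38.8 CPM in ISG-zero cells, a difference of 3.03 ± 0.09 (log2, adjusted p = 4.27e-18). Slfn9 had 14 and 34 UMIs in ISG-high cells, against 9 and 10 UMIs in ISG-zero cells, which is 15.3 and 19.7 CPM against 0.897 and 0.847 CPM (4.33 ± 0.55, adjusted p = 3.89e-06). Slfn3 was too low to be tested, with 2 and 6 UMIs in ISG-high cells, against 7 and 21 UMIs in ISG-zero cells. Among genes tested in this split that had a RefSeq promoter window, the core was in 25.2% of the 262 called higher, in 60.5% of the 43 higher by at least 2 (log2), and in 4.435% of all 6314. A gene was counted if any of its windows held the core, so these shares are per gene and not per window. They describe letters and were not tested.

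Single mature cells with the signature tended to hold several members. In cells thinned to 500 UMIs, 6.06% and 6.05% of ISG-high cells had a UMI of none of the 4 genes, against 34.0% and 26.6% of ISG-zero cells. UMIs of all 4 genes were in 7.41% and 7.57% of ISG-high cells, against 0.214% and 0.521% of ISG-zero cells. The classes thus differed in the same direction in both pools.

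Slfn5 and Slfn4 also went together in cells in which none of Ifit1, Ifit3 and Rsad2 was seen. ISG-zero mature cells with a Slfn5 UMI (444 and 617 cells) held 1481 and 1859 CPM of Slfn4, against 842 and 1009 CPM in those without. Their interferon-stimulated list summed to 5839 and 5586 CPM, against 3319 and 3448 CPM. Slfn2 in the same cells was at 759.8 and 941 CPM, against 758 and 846 CPM, and Slfn1 at 871 and 1504 CPM, against 850.3 and 1206 CPM. Median depth was 1132 and 1442 UMIs in cells with a Slfn5 UMI, against 1011 and 1319 UMIs. These values are descriptions with no test.

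Immature neutrophils, Ltf-high and late immature cells together, were split in the same way. There were 54 and 26 ISG-high cells, so a minimum of 20 cells per sum was used. Slfn5 stood at 165 and 243 CPM in immature ISG-high cells, from 35 and 32 UMIs, against 17.5 and 6.52 CPM in immature ISG-zero cells. Slfn4 stood at 1849 and 1794 CPM in immature ISG-high cells, against 855 and 1042 CPM in immature ISG-zero cells. Slfn1 stood at 1000.1 and 1262 CPM in immature ISG-high cells, against 512 and 703 CPM in immature ISG-zero cells. Slfn2 stood at 660.5 and 760.3 CPM in immature ISG-high cells, against 511 and 469 CPM in immature ISG-zero cells. None of the 4 ranges overlapped. The differences were 3.65 ± 0.36 for Slfn5 (adjusted p = 8.14e-06), 0.84 ± 0.14 for Slfn4 (adjusted p = 0.00269), 0.79 ± 0.14 for Slfn1 (adjusted p = 0.00433) and 0.41 ± 0.15 for Slfn2 (adjusted p = 0.246), where 1.46% of 7928 genes were called higher and 0.252% lower. The calls of Slfn4 and Slfn1 were lost without the block (adjusted p = 0.242 and 0.463) and without the YO1 immature ISG-high cells (adjusted p = 0.142 for each). Of 10 immediate early and stress genes 3 were called higher with this split, Dusp1, Fos (1.19 ± 0.26) and Junb (0.96 ± 0.22). The neutrophil list stood at 200646 and 190751 CPM in immature ISG-high cells, against 235177 and 232840 CPM in immature ISG-zero cells, and the part of either in the Schlafen values was not tested.

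The difference of Slfn4 was smaller in immature than in mature cells. The test of the difference itself, immature minus mature, gave -1.19 ± 0.19 (log2, adjusted p = 0.0132), where 0.151% of genes were called positive and 0.0757% negative. Slfn1, Slfn2 and Slfn5 gave 0.11 ± 0.19, -0.15 ± 0.20 and 0.12 ± 0.37 and did not pass. Of 36 interferon-stimulated genes 3 were called negative, Cmpk2, Ifit2 and Sp100, with a median of -0.22 beside -0.04 over all genes. The Slfn4 call was lost without the block (adjusted p = 0.758) and without the immature ISG-high cells of YO1 (-1.38, adjusted p = 0.0503) or YO2 (-1.21, adjusted p = 0.123). The gate of 3 UMIs reached a lower CPM in the deeper immature cells. Their median was 3482.5 and 5092.5 UMIs, with 1406 and 1597 CPM of Ifit1, Ifit3 and Rsad2, against 1152 and 1494 UMIs and 4357 and 4121 CPM in mature ISG-high cells. The part of this in the Slfn4 result was not tested.

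**Figure D3:**
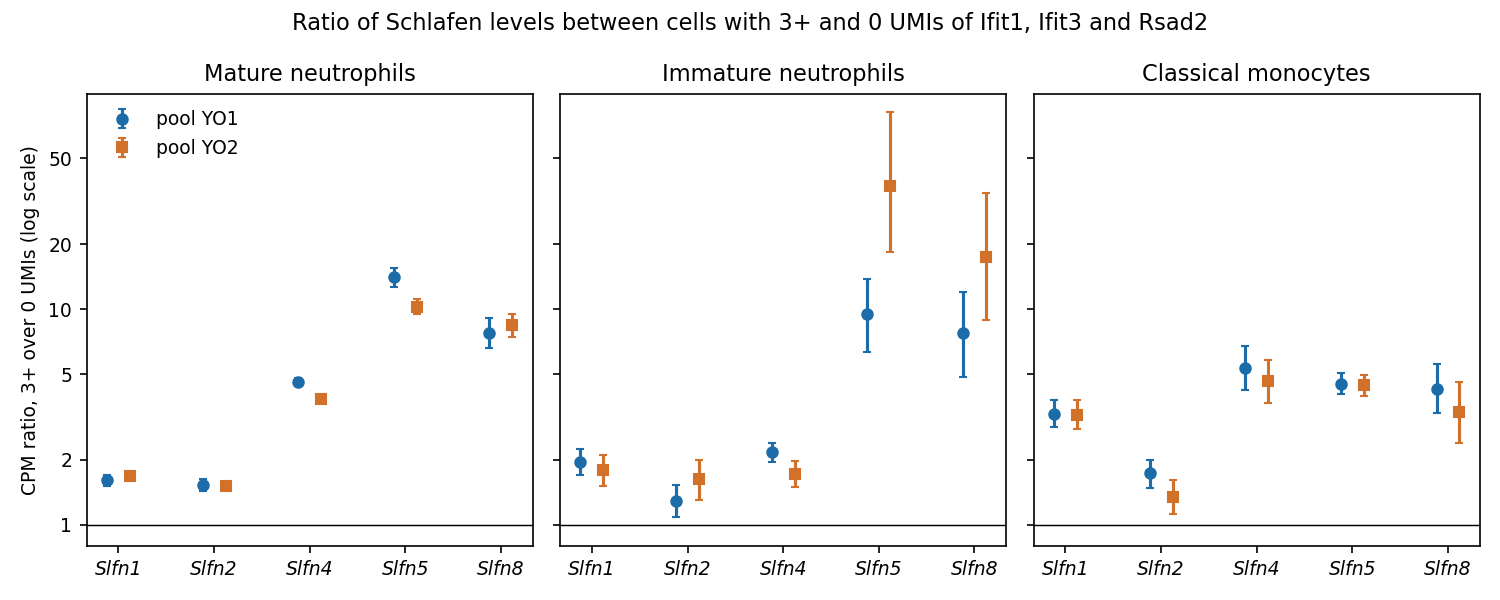
Ratio of CPM (log scale) of 5 Schlafen genes between cells with 3 or more and with 0 UMIs of Ifit1, Ifit3 and Rsad2, in mature neutrophils, immature neutrophils and classical monocytes. Points are the pools and bars 95% counting intervals. The Slfn4 ratio was 4.604 and 3.84 in mature neutrophils and stands lower in immature neutrophils, while the Slfn5 ratios are high in both.

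Outside the neutrophil stages, cells were given to other lineages by marker UMIs, and 10 lineages had at least 30 cells in both pools. Against mature neutrophils, 38 of 40 gene-by-lineage comparisons were called, 37 lower and 1 higher in the other lineage. The background was high, with 34.2% of genes called higher and 36.2% lower in alveolar macrophages, 32.6% and 30.4% in the endothelial gate, 29.1% and 30.6% in C1q macrophages and 28.8% and 28.9% in plasma cells. It was 27.4% higher and 30.3% lower in dendritic cells, 27.2% and 31.4% in classical monocytes, 26.7% and 29.8% in B cells and 22.7% and 29.8% in nonclassical monocytes. It was 18.3% and 26.3% in T and NK cells and 8.87% and 20.6% in basophils and mast cells. Slfn1 and Slfn4 were lower in all 10 lineages, by 2.09 to 5.79 and 3.50 to 5.87 on the log2 scale, and Slfn2 was lower in all 10 by 1.65 to 4.15. These sizes rest on TMM factors. For Slfn2 in classical monocytes the difference was -1.65, while the CPM lay closer together, at 518 and 461 against 809 and 928 in mature cells. With total UMIs 36 of the 38 calls were kept. The count of calls was between 37 and 39 when single sums were left out.

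The one rise called in the main fit, with TMM factors, was Slfn5 in classical monocytes, the Ly6c2-expressing precursors of inflammatory macrophages. Slfn5 stood at 704 and 774 CPM in classical monocytes, against 150.1 and 200.4 CPM in mature neutrophils, without overlap (1.27 ± 0.22, adjusted p = 8.55e-05). It was at 334 and 704 CPM in the cells of the endothelial gate (0.41 ± 0.23, adjusted p = 0.132), also above both mature pools. In dendritic cells it was at 170.4 and 273 CPM (-0.41 ± 0.23, adjusted p = 0.135). Neither was called in the main fit. The sign for dendritic cells turned with scaling, since their CPM was above that of mature cells in both pools and total UMIs gave 0.34 (adjusted p = 0.273). The endothelial gate rests on few cells in YO2, 51 against 612 in YO1, and there the endothelial genes Stab2 and Oit3 were at 0. Slfn5 in this gate was called higher with RLE factors (0.89, adjusted p = 0.00414) and with total UMIs (1.48, adjusted p = 0.000101). DESeq2 (0.91, adjusted p = 0.00409) and the fit in thinned cells (1.01, adjusted p = 0.00621) called it too. The fits without a filter, without the block and with the lineage gate at 5 marker UMIs did not. In C1q macrophages Slfn5 was at 205 and 169 CPM (-0.73 ± 0.23, adjusted p = 0.0103), a call that was lost with RLE factors (-0.37, adjusted p = 0.191), with total UMIs (0.10, adjusted p = 0.748) and without the YO2 macrophages (-0.17, adjusted p = 0.673). In nonclassical monocytes Slfn5 was at 123 and 159 CPM (-1.14 ± 0.22, adjusted p = 0.000403), which total UMIs did not call (-0.31, adjusted p = 0.320).

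Each gene had its own order across the classes. By the mean of the pools, Slfn1 ran from mature ISG-high cells through the other mature and immature neutrophils to classical monocytes (477 and 441 CPM). Nonclassical monocytes (184 and 308 CPM) came next, and alveolar macrophages were last (24.9 and 50.8 CPM). Ranges of neighbouring classes overlapped from mature ISG-high down to late immature cells. For Slfn5 mature ISG-high cells came first, classical monocytes next and alveolar macrophages last. Slfn4 was above 850 CPM in every neutrophil class beyond cycling cells and under 280 CPM in every other lineage. Classical monocytes stood at 203 and 201 CPM of Slfn4 and C1q macrophages at 174 and 273 CPM, whose ranges overlapped. Slfn2 was more even across lineages. It stood at 855 and 806 CPM in eosinophils, as high as in mature ISG-zero cells, although the 11 eosinophils of YO2 were too few to test and had no UMI of the eosinophil gene Epx. It was at 518 and 461 CPM in classical monocytes, 411 and 366 CPM in basophils and mast cells, 382 and 380.2 CPM in nonclassical monocytes and 252 and 247 CPM in alveolar macrophages, and under 70 CPM in plasma cells (65.6 and 58.3 CPM).

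RNA of mature neutrophils in other cells could bring at most a level set by S100a8 and S100a9, if mature neutrophils of average content were its source. If all S100a8 and S100a9 UMIs of alveolar macrophages were such RNA, it would bring 22.0 and 47.4 CPM of Slfn1 and 29.4 and 54.3 CPM of Slfn4, against the 24.9 and 50.8 CPM and the 29.2 and 59.0 CPM measured. The measured values were near this level, and its part in them was not tested. T and NK cells, at 52.8 and 88.1 CPM of Slfn4, stood near a level of 48.5 and 117 CPM. For Slfn2 in alveolar macrophages the level was 19.2 and 31.8 CPM, under the 252 and 247 CPM measured. In classical monocytes it was 46.6 and 80.9 CPM for Slfn1, 62.4 and 92.7 CPM for Slfn4 and 7.55 and 11.7 CPM for Slfn5, all below the measured levels.

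**Figure D4:**
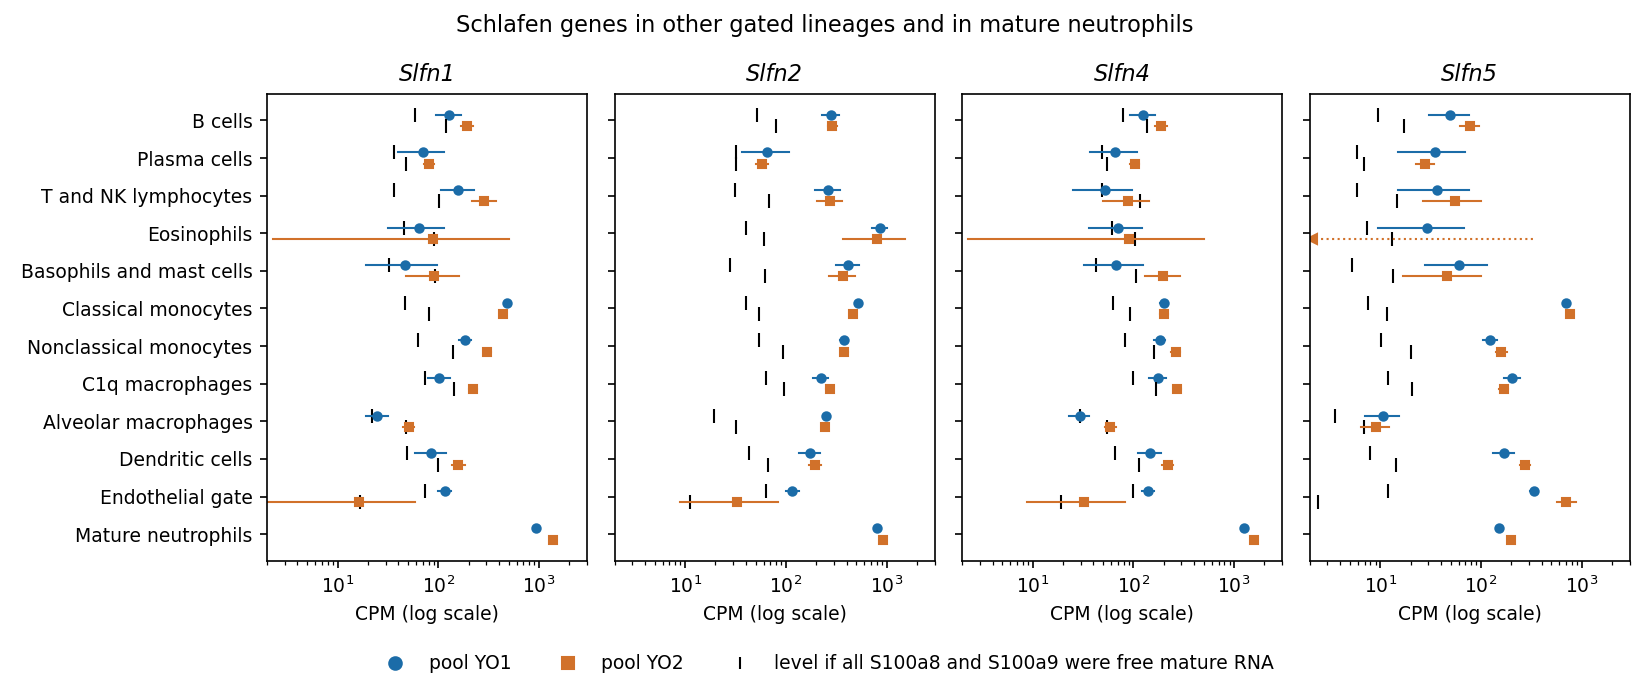
CPM (log scale) of the 4 members in other gated lineages and in mature neutrophils, one panel per gene, with 95% exact Poisson intervals. Black ticks give the level that free RNA of mature neutrophils would bring if it were the source of all S100a8 and S100a9 UMIs of the class. Slfn1 and Slfn4 of alveolar macrophages stand on their ticks, and Slfn5 of classical monocytes (704 and 774 CPM) stands above mature neutrophils; the arrow marks eosinophils of YO2, which had 0 UMIs of Slfn5 and an upper limit only.

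In classical monocytes all 4 members stood higher in ISG-high than in ISG-zero cells. Slfn5 stood at 2008 and 2127 CPM in ISG-high monocytes (80 and 53 cells), against 445 and 481 CPM in ISG-zero monocytes (448 and 267 cells). Slfn1 stood at 1054 and 995 CPM in ISG-high monocytes, against 322 and 308 CPM in ISG-zero monocytes. Slfn4 stood at 509 and 534 CPM in ISG-high monocytes, against 95.1 and 116 CPM in ISG-zero monocytes. Slfn2 stood at 793 and 569.8 CPM in ISG-high monocytes, against 458 and 422 CPM in ISG-zero monocytes. No ranges overlapped, and no test was made. Neutrophil markers moved with this split. The neutrophil list stood at 5489 and 6580 CPM in ISG-high monocytes, against 3729 and 3449 CPM in ISG-zero monocytes, and S100a8 and S100a9 took 0.409% and 0.487% of UMIs, against 0.249% and 0.248%. Mature ISG-high neutrophils held 4092 and 4194 CPM of Slfn4 with 5.54% and 4.80% S100a8 and S100a9, and the part of such RNA in the monocyte values was not tested. In C1q macrophages Slfn4 stood at 1018 and 1073 CPM in the 11 and 27 ISG-high cells, against 62.6 and 152 CPM in ISG-zero cells. Their neutrophil list stood at 12984 and 10590 CPM in ISG-high macrophages, against 6548 and 7782 CPM in ISG-zero ones, with 0.785% and 0.703% S100a8 and S100a9 UMIs, against 0.451% and 0.531%. The part of neutrophil RNA in these values was not tested.

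By their course over 33 class-by-pool sums, Slfn1 and Slfn4 were alike and Slfn5 stood apart. On log2(CPM + 1), Pearson's r was 0.92 between Slfn1 and Slfn4, 0.76 between Slfn1 and Slfn2 and 0.72 between Slfn2 and Slfn4. With Slfn5, r was 0.34 for Slfn1, 0.33 for Slfn4 and 0.13 for Slfn2. Of 5838 genes compared, those most like Slfn1 included S100a6 (0.93), Slfn4, Clec4e (0.90) and Klra17 (0.90). Those most like Slfn4 were Klra17 (0.93), Mxd1 (0.93), Slfn1, Stfa2l1 (0.91) and Hp (0.91), and those most like Slfn2 included Cdc42se1 (0.95), Gmfg (0.93), Gpsm3 (0.93) and AI467606 (0.92). The 5 most like Slfn5 were Parp14 (0.88), Rnf213 (0.81), Stat2 (0.79), Marcks (0.77) and Isg15 (0.77). The sums include mature cells split by their UMIs of Ifit1, Ifit3 and Rsad2. Genes that follow this split, Slfn5 among them, are thus made more alike by the choice of classes. The sums of a pool also share a library, so these are descriptions.

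The pools differed in level. In mature cells Slfn1 was at 1385 CPM in YO2 (95% exact interval 1367 to 1404) and 926 CPM in YO1 (909.5 to 943). Slfn4 was at 1587 CPM in YO2 (1568 to 1607) and 1241 CPM in YO1 (1222 to 1261), Slfn2 at 928 CPM in YO2 (913 to 943) and 809 CPM in YO1 (793 to 825), and Slfn5 at 200.4 CPM in YO2 (194 to 207) and 150.1 CPM in YO1 (143 to 157). The intervals did not overlap for any member. They cover counting error only, and with 1 library per pool there is no test.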

How the data were processed

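Per the labels, sorted cells of both pools were sequenced on a NextSeq 2000 with reads of 60 and 42 bases, converted with BCL Convert 3.6.3, and mm10 was the build. For aligner, gene annotation and cell calling, nothing is given in the sources used here. The authors deposited raw UMI counts per gene and cell for each pool, and the values used here are these counts. Tag libraries that hold tissue and age were not used here.

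Of 20352 and 17720 barcodes, 847 and 505 failed the filters. The kept cells held 39443159 UMIs in YO1 and 41276091 in YO2. Counts were summed per class and pool where a class had at least 30 cells in both pools, and tested with edgeR 4.0.16 (filterByExpr, TMM factors, quasi-likelihood, pool as a block), with Benjamini-Hochberg adjustment over all genes tested. The block is justified because sums with the same number come from the same pool and library. DESeq2 1.42.0, other scalings, no filter, no block, thinning, other gates and leaving out single sums were alternatives. Fits in thinned cells gated the cells anew on the thinned counts, while shares of thinned cells kept the original classes. Other lineages needed at least 3 UMIs from at least 2 markers of 1 of 11 lists and no neutrophil gate. Doublets were not called; leaving out the 5% of cells with most UMIs was an alternative. Intervals are exact Poisson or Clopper-Pearson, and cover counting error only. The genes named were the 4 members, other Schlafen genes, the first 6 genes of each list and the 5 genes most like each member among those with at least 20 CPM on average, gate genes, lineage markers, numbered gene models, ribosomal and mitochondrial genes left out. A few genes that this rule names are not reported here. Irf2, Socs1, Ifi44, Cmpk2, Ifit2 and Sp100 were named after their values were seen, as was Dusp1, and so were the contrasts of mature with Ltf-high cells, of the 1 to 2 UMI class and within immature cells. The members and lists were chosen with earlier results of these data known. On simulated counts, the mature against late immature test on 9817 genes recovered 15 of 98 genes changed by 1 (log2) and 53 of 97 changed by 2, and called 2 of 9622 unchanged ones. The split on 7557 genes recovered 63 of 92 changed by 1 and 90 of 96 changed by 2, and called 2 of 7369. All simulated sums were drawn from a common profile without differences between pools, so they do not cover false calls that such differences could bring.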

Additional observations from a re-analysis of the deposited data

Results flagged for a closer look

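The difference of Slfn4 between cells with at least 3 and with 0 UMIs of Ifit1, Ifit3 and Rsad2 was itself different between immature and mature neutrophils, by -1.19 (log2, immature minus mature, edgeR adjusted p = 0.0132). It was negative in all 8 fits that left out a single sum. The call was lost without the immature ISG-high cells of either pool, and also without the pool block. The gate of 3 UMIs reached a lower CPM of Ifit1, Ifit3 and Rsad2 in immature cells, and the part of this was not tested. The immature ISG-high sums held 54 and 26 cells.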

How the results depend on the processing

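Of 464 alternative values over 33 results, 413 kept their direction and their side of the threshold, 29 lost the call, 9 gained it and 13 changed sign; the cause was not tested. For Slfn5 in Ltf-high against cycling cells the difference was -0.024 with RLE factors, -0.29 with total UMIs, -0.10 with DESeq2, -0.41 in thinned cells, -0.31 without the 5% of cells with most UMIs, 1.27 with the S100-limited cycling gate, and -0.049 to 1.17 when single sums were left out. The share of higher calls in that comparison was 57.8%, against 31.1% with RLE factors and 19.1% with total UMIs. For late immature against Ltf-high cells, Slfn1 was 0.69 with DESeq2, Slfn4 -0.19 in thinned cells and Slfn2 between -0.13 and 0.53 when sums were left out. For mature against late immature cells, thinned cells gave 1.05, 0.83 and 0.72 for Slfn1, Slfn2 and Slfn4, all called, and leaving out the 5% of cells with most UMIs gave -0.0091 for Slfn1 and 1.51 for Slfn5, with 1.53 to 2.44 for Slfn5 when sums were left out. Without the pool block, Slfn5 at that step was 1.90, Slfn1 and Slfn2 in the mature split were 0.74 and 0.62, and the Slfn4 difference between immature and mature cells was -1.20, none of them called. When sums were left out, that last comparison ran from -0.044 to 0.21 for Slfn1, -1.38 to -1.10 for Slfn4 and -0.27 to 1.36 for Slfn5.

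Counts of called genes moved more. The counts here include the genes that set the gates, which the percentages of called genes given with each comparison leave out. Late immature against Ltf-high gave 146, against 449 with DESeq2, 447 without a filter, 7 without the block and 0 without the YO2 late immature cells. Mature against late immature gave 618, against 227 without the block, 1995 in thinned cells and 5 without the YO1 late immature cells. Ltf-high against cycling gave 4815, against 997 in thinned cells, and mature against cycling 6299, against 2224. The mature split gave 357, against 166 with DESeq2, 71 without the block and 186 in thinned cells. The difference between immature and mature cells gave 18, against 0 without the block and 58 with DESeq2. Late immature against Ltf-high also gave 530 without the 5% of cells with most UMIs, 89 with RLE factors, 95 with total UMIs and 39 in thinned cells. The class with 1 to 2 UMIs against 0 gave 279, against 77 with DESeq2, 11 without the block, 92 in thinned cells and 136 without cells holding lineage markers, and the immature split 139, against 29 without the block. With single sums left out, the counts ran from 0 to 303 for late immature against Ltf-high, 226 to 630 for the mature split, 110 to 629 for 1 to 2 UMIs, 44 to 267 for the immature split, 1 to 115 for immature minus mature, and 1606 to 2033 for mature against Ltf-high, beside 3080 with all sums. The comparison of immature with mature cells was not run at 30 cells per sum, in thinned cells or without cells holding lineage markers, and the stricter late immature gate left too few cells in YO2.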

Other observations

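Cells that no gate took still held the Schlafen genes. Those with at least 2% S100a8 and S100a9 UMIs and intermediate Ngp (572 in YO1 and 60 in YO2) stood at 919 and 1075 CPM of Slfn1, 717 and 669.9 CPM of Slfn2, 1075 and 1758 CPM of Slfn4 and 78.1 and 66.3 CPM of Slfn5. Those with a lower S100a8 and S100a9 share, low Ngp and no lineage (1933 and 3348 cells) stood at 588 and 1038 CPM of Slfn1, 691 and 710.5 CPM of Slfn2, 703 and 1148 CPM of Slfn4 and 226 and 265 CPM of Slfn5.

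Slfn9, a long member of the family, had the opposite sign to Slfn1, Slfn2 and Slfn4 at the first step. It was lower in Ltf-high than in cycling cells, by -2.68 ± 0.63 (log2, edgeR adjusted p = 0.00519). Over the pools it stood at 1.51 to 1.65 CPM in Ltf-high and 17.9 to 18.5 CPM in cycling cells. The cycling cells of YO2 held 24634 CPM of the plasma cell list, and their part was not tested. Slfn9 was higher in classical monocytes than in mature neutrophils, by 2.31 ± 0.42 (adjusted p = 0.000251). In all kept cells it had 234 UMIs in YO1 and 174 in YO2. Slfn8 was called higher in Ltf-high than in cycling cells with TMM factors (1.34 ± 0.29, adjusted p = 0.00326), but its CPM was higher in YO1 alone, at 21.3 and 20.6 CPM in Ltf-high cells, against 10.7 and 21.4 CPM in cycling cells.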
